A study of Sus scrofa with 12 samples.

Results

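Neural ectoderm transcription factors are described here as a set of 7 genes, PAX6, SOX1, SOX3, OTX2, ZIC2, LHX2 and SIX3, in pig induced pluripotent stem cells with and without inhibition of the Activin receptor. The members were looked up by symbol, and all 7 were found among the 24358 genes of the deposited tables. Of these, 6 carried their symbol in the tables. OTX2 carried none and was found by its identifier, ENSSSCG00000005063, which the reference gene table pairs with OTX2.

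RNA sequencing was made from 12 libraries, 3 in each of 4 groups. WT PC-iPS are the unedited parental cells, which were reprogrammed from pig pericytes. NANOG tdTomato knock-in positive PC-iPS are 3 cell lines in which a 3×FLAG-P2A-tdTomato cassette and a puromycin resistance gene with its own hPGK promoter were placed at NANOG. The lines were grown from mixed transfected populations and sorted for tdTomato, so that single cells may differ in which NANOG alleles carry the insertion. The other groups are knock-in positive cells given Activin A, a ligand of the TGF-β family, or SB431542, an inhibitor of the receptors for Activin, Nodal and TGF-β. The sample labels give the LCDMV medium for every library, whereas the study's methods describe the treatments in T1, which is LCDMV without LIF. Dose and duration are not given in the labels. Feeder cells were removed by brief plating before RNA was taken. The knock-in positive libraries carry the numbers of the 3 lines, and the treated libraries carry the same numbers. Nothing says that the WT libraries came from separate cultures, so p-values against WT measure, on that side, only the spread between these libraries, which may be technical.

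In the vertebrate embryo, ectoderm shielded from BMP and Nodal signals becomes neural plate, and blocking the Activin and Nodal receptors is a common step in directing pluripotent cells to neural ectoderm. Among the members, OTX2 and ZIC2 are also expressed in primed pluripotent cells, whereas PAX6 and SOX1 are classical markers of neural ectoderm. SOX3 is a SOXB1 factor of neural progenitors like SOX1, and LHX2 and SIX3 pattern the forebrain and the eye field.

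Expression is given as FPKM, fragments per kilobase of transcript scaled to the mapped reads of the library, which allows levels of different genes to be compared. Relative depth, estimated from the steps between the lowest values and set to 1 for knock-in library 1, was 0.566 to 0.634 in WT, 0.731 to 1 in knock-in positive, 0.861 to 0.979 in Activin A and 0.836 to 0.949 in SB431542 libraries. Total depth is unknown. NANOG, the edited gene, was at 9.71, 16.4 and 27.6 FPKM in the WT libraries and at 52.0, 101 and 70.4 FPKM in the knock-in positive libraries. It stood at 109, 195 and 157 FPKM with Activin A and at 11.8, 27.2 and 11.8 FPKM with SB431542. Pig NANOG has loci with near-identical sequence on different chromosomes, so reads of one may have been counted at the other. Of the 10 markers listed for induced pluripotent stem cells, 9 could be matched, and those given here were chosen after their values were seen. SOX2 (39.1 to 71.5 FPKM over the 12 libraries), LIN28A (32.8 to 498) and SALL4 (10.1 to 18.3) were present, EPCAM did not exceed 0.516 FPKM, TDGF1 did not exceed 0.599 FPKM, and POU5F1 could not be matched to a row.

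The members formed 3 tiers of expression. OTX2 was the most abundant, with group means of 79.0 ± 13.1 FPKM in WT, 68.8 ± 11.8 in knock-in positive, 58.2 ± 6.21 in Activin A and 63.7 ± 6.12 in SB431542 libraries (SD, n = 3 each). ZIC2 followed at 36.0 ± 16.0, 51.9 ± 13.0, 53.5 ± 10.4 and 49.3 ± 8.56 FPKM in the same order. Because the lowest OTX2 library (53.5 FPKM) lay below the highest ZIC2 library (65.0 FPKM), their ranges met.

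PAX6 and SOX1 formed the middle tier. Mean PAX6 was 16.6 ± 9.16 FPKM in WT, 2.94 ± 1.81 in knock-in positive, 3.29 ± 1.57 in Activin A and 4.51 ± 2.47 in SB431542 libraries (SD, n = 3 each). Mean SOX1 was 5.15 ± 1.60, 10.6 ± 8.16, 15.6 ± 14.1 and 5.86 ± 3.59 FPKM in the same order. PAX6 was thus the higher of the pair in every WT library, and the levels of both overlapped within each of the other groups.

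SOX3, LHX2 and SIX3 were at or near 0 in every group. SOX3 was at 0.0892, 0.101 and 0 FPKM in WT libraries and at no more than 0.0283 FPKM in any of the 9 knock-in libraries, treated or not. LHX2 was above 0 in 3 libraries, at 0.0539 FPKM in WT library 3 and at 0.0352 and 0.0366 FPKM in Activin A libraries 2 and 3. SIX3 was above 0 only in WT libraries 1 and 2, at 0.0212 and 0.0233 FPKM. None of these 3 genes reached 0.1 FPKM in 3 libraries, the filter used for testing, so 4 of the 7 members were tested and no difference could be assessed for the others. SOX3 and SIX3 each overlap another annotated gene, LOC110257749 and LOC110260022, and reads of overlapping genes may not have been separated.

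**Figure D1:**
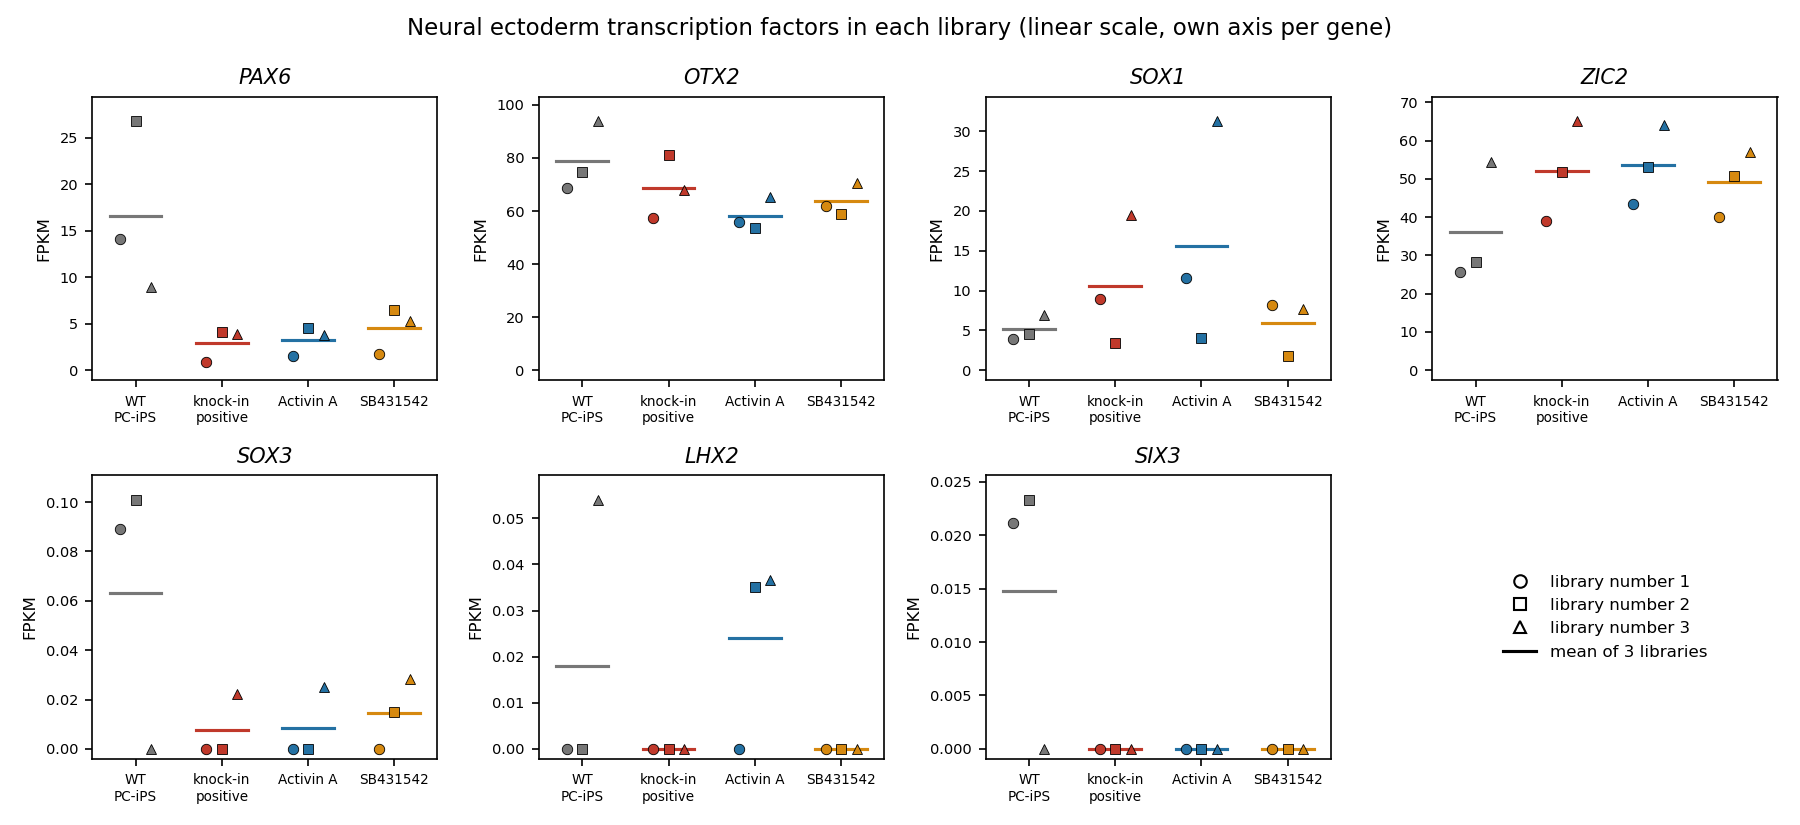
FPKM (y axis, linear, a separate scale for each gene) of the 7 members in the 12 libraries, by group (x axis). Each symbol is 1 library, its shape gives the library number and the bar is the group mean. PAX6 is highest in the WT libraries (8.96 to 26.8 FPKM), the groups of OTX2 and of ZIC2 overlap, SOX1 runs from 1.73 to 31.3 FPKM, and the lower 3 genes do not exceed 0.101 FPKM.

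All 7 genes lie on known chromosomes of Sscrofa11.1 in the RefSeq annotation, the assembly the authors aligned to. PAX6 is at chr2:28971565-29001149, and SOX1 and ZIC2 share chromosome 11, at chr11:77985771-77989383 and chr11:68840802-68845441. ZIC5, the nearest protein-coding neighbour of ZIC2, starts or ends 10330 bp from it. OTX2 and LHX2 are on chromosome 1, at chr1:186028575-186039026 and chr1:264900931-264920888. SIX3 is at chr3:95521330-95527004 and SOX3 at chrX:115017704-115020601.

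The question put to the treated cells was whether receptor inhibition raises neural genes over Activin A. None of the 4 members tested was called between SB431542 and Activin A, where a call needs a log2 fold change of at least 1 in size and an adjusted p of at most 0.05 (limma on log2(FPKM + 1), Benjamini-Hochberg adjustment over all 13999 genes tested). Over all genes the same rule called 13 genes, 5 higher (0.0357%) and 8 lower (0.0571%) with SB431542, together 0.0929% of those tested. The groups overlapped for all 4 members, whereas for 20.0% of all genes they did not. At an unadjusted p under 0.05, 0 of the 4 members passed, against 12.8% of all genes. Libraries of the knock-in positive, Activin A and SB431542 groups that carry the same number deviated together from their group means, and the number was therefore also fitted as a block. With the block, 99 genes were called, 26 higher (0.186%) and 73 lower (0.521%), together 0.707%, and again 0 of the 4 members. An unadjusted p under 0.05 was then reached by 3 of the 4 members and by 23.7% of all genes.

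PAX6 stood at 1.52, 4.54 and 3.80 FPKM in Activin A libraries 1 to 3 and at 1.75, 6.52 and 5.28 FPKM in SB431542 libraries 1 to 3. The groups overlapped, but in each number the SB431542 library was the higher, by 1.15 to 1.44 times. Of all genes tested, 25.2% were likewise higher in 3 of 3 numbers. The log2 difference was 0.32 (95% confidence interval -0.75 to 1.39, adjusted p = 0.81), and with the block its interval was 0.051 to 0.58 (unadjusted p = 0.028, adjusted p = 0.16).

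SOX1 went the other way in value. It stood at 11.5, 3.99 and 31.3 FPKM with Activin A and at 8.14, 1.73 and 7.72 FPKM with SB431542, so that the groups overlapped while the SB431542 library was the lower in each number, at 0.247 to 0.706 times its counterpart. Of all genes, 23.7% were lower in 3 of 3 numbers. The log2 difference of -1.07 had an interval of -2.86 to 0.72 (adjusted p = 0.59), and of -1.80 to -0.35 with the block (unadjusted p = 0.013, adjusted p = 0.12). Its size passed the fold limit of a call but its adjusted p did not.

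OTX2 stood at 55.8, 53.5 and 65.2 FPKM with Activin A and at 61.8, 58.8 and 70.6 FPKM with SB431542. ZIC2 stood at 43.4, 53.0 and 64.2 FPKM and at 40.0, 50.8 and 56.9 FPKM in the same order. For both genes the groups overlapped, OTX2 being slightly higher and ZIC2 slightly lower with SB431542 in every number. The log2 difference was 0.13 for OTX2 (interval -0.12 to 0.38, adjusted p = 0.64) and -0.11 for ZIC2 (interval -0.54 to 0.31, adjusted p = 0.83). With the block the adjusted p was 0.18 for OTX2 and 0.25 for ZIC2. For these 2 genes the intervals lie within the fold limit of a call, whereas that of PAX6 does so only with the block and that of SOX1 in neither fit.

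**Figure D2:**
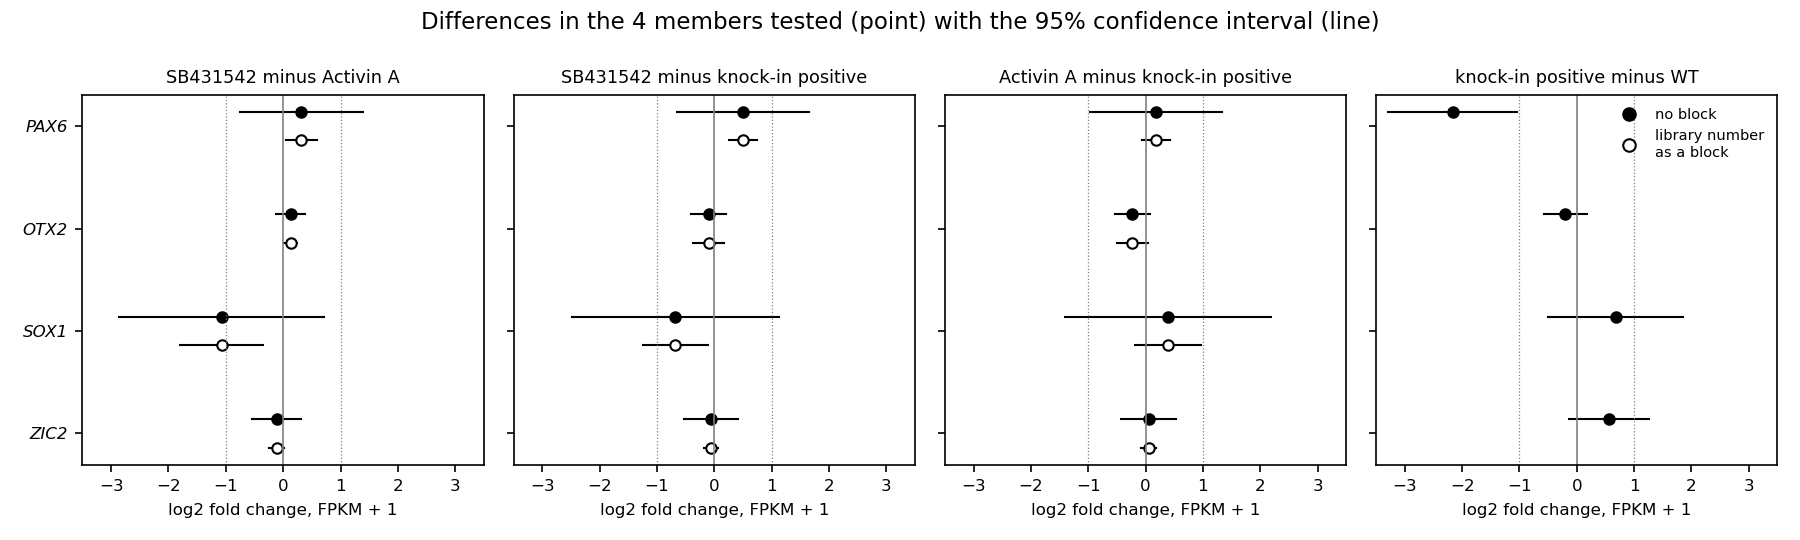
Log2 fold change of FPKM + 1 (x axis) of the 4 members tested (y axis) in 4 comparisons, 1 panel each. Filled points are fits without the block and open points fits with the library number as a block, lines are 95% confidence intervals not adjusted for multiple testing, and dotted lines mark the fold limit of a call. With SB431542 against Activin A, PAX6 lies at 0.32 and SOX1 at -1.07, and the intervals narrow with the block. The knock-in positive against WT panel shows PAX6 at -2.17.

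Set against untreated knock-in positive cells, SB431542 again gave no call among the members. This comparison was fitted over 9 libraries and 14313 genes, and it shares the SB431542 libraries with the comparison above. The untreated cells are in the other deposited table, and table, medium and treatment cannot be told apart. No gene was called in it without the block (0%), although 714 genes (4.99%) had an unadjusted p under 0.05, none of them a member. The groups overlapped for all 4 members and did not for 9.79% of all genes. With the block 14 genes were called, 4 higher and 10 lower (0.0978%), and none was a member. An unadjusted p under 0.05 was then reached by 2 of the 4 members and by 14.9% of all genes.

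PAX6 stood at 0.858, 4.12 and 3.84 FPKM in untreated knock-in positive libraries 1 to 3, below the SB431542 library of the same number each time. The ratio of SB431542 to untreated was 1.37 to 2.04, and 19.6% of all genes were higher in 3 of 3 numbers. Its log2 difference was 0.50 (interval -0.66 to 1.66, adjusted p = 0.99), with the block 0.26 to 0.74 (unadjusted p = 0.0017, adjusted p = 0.091). The blocked interval lies above 0 but within the fold limit of a call.

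SOX1 stood at 8.94, 3.38 and 19.4 FPKM in the untreated libraries, above the SB431542 library of the same number each time. The ratio of SB431542 to untreated was 0.397 to 0.910, and 18.9% of all genes were lower in 3 of 3 numbers. The log2 difference was -0.68 (interval -2.48 to 1.12, adjusted p = 0.99), with the block -1.25 to -0.10 (unadjusted p = 0.027, adjusted p = 0.27). OTX2 (57.4, 81.0 and 68.0 FPKM untreated) and ZIC2 (39.0, 51.8 and 65.0 FPKM untreated) differed from SB431542 by -0.099 and -0.059 on the log2 scale, with adjusted p of 0.992 and 0.999 (limma), and neither kept 1 direction over the 3 numbers.

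Activin A against untreated knock-in positive cells, which shares libraries with both comparisons above, called 2 genes of 14313 (0.0140%) and 23 with the block (0.161%), and 0 members in either. The groups overlapped for all 4 members and did not for 9.46% of all genes. The log2 differences were 0.18 for PAX6, 0.39 for SOX1, -0.23 for OTX2 and 0.055 for ZIC2. Each of the 4 intervals included 0, with and without the block. SOX1 was higher with Activin A in 3 of 3 numbers, by 1.18 to 1.61 times, where 19.0% of all genes did so, and OTX2 was lower in 3 of 3, where 18.6% did so.

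PAX6 and SOX1 also differed between library numbers within the knock-in cells, and the knock-in lines carry the same numbers. Averaged over the untreated, Activin A and SB431542 libraries of 1 number, PAX6 was 1.38, 5.06 and 4.31 FPKM for numbers 1, 2 and 3, and number 1 was the lowest in each of the 3 groups. SOX1 averaged 9.54, 3.03 and 19.5 FPKM, and number 2 was the lowest in each of the 3 groups. The highest number was thus 3.67 times the lowest for PAX6 and 6.42 times for SOX1, but only 1.16 times for OTX2 and 1.52 times for ZIC2. These are descriptions over 3 numbers, with no test.

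The genes most like each of the 4 members over the 12 libraries were different for each member. By Pearson r of log2(FPKM + 1) among 10314 named genes with a mean of at least 1 FPKM, the 3 closest to PAX6 were the tetraspanin CD9 (0.948), the small GTPase RAB13 (0.934) and the zinc transporter SLC30A6 (0.932). Those closest to SOX1 were CCNF (0.947), CAPN5 (0.935) and SOX21 (0.933), of which SOX21 is itself a SOX factor of neural progenitors. OTX2 was followed by DUSP18 (0.908), ZNF550 (0.899) and RPRD2 (0.892), and ZIC2 by RHBDD2 (0.969), ATP6V0C (0.967) and CACHD1 (0.965). The 12 libraries share groups and library numbers, so these values describe the libraries and carry no test.

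Genes that respond to Activin and Nodal did differ between SB431542 and Activin A. NANOG, a target of SMAD2/3, fell by 3.18 on the log2 scale with SB431542 against Activin A (adjusted p = 0.042, limma), and SMAD7, the feedback inhibitor of the pathway, fell by 1.80 (adjusted p = 0.024). SMAD7 was at 7.28, 8.07 and 6.67 FPKM with Activin A and at 1.75, 1.11 and 1.37 FPKM with SB431542. LEFTY2, a secreted Nodal antagonist, was at 1.37, 0.783 and 1.20 FPKM with Activin A and was listed at 0 in all 3 SB431542 libraries. It passed the filter only through the Activin A libraries and is given as a level, with no test. The groups do not overlap for NANOG or SMAD7, and 9.19% of all genes were likewise lower without overlap. Of the 15 genes listed as Activin and Nodal readouts, 10 including LEFTY2 passed the filter. NANOG and SMAD7 fell while 0 rose, where 0.0571% of all genes were called lower. With the block PMEPA1 (-1.74), FST (-1.28) and BAMBI (-1.11) fell as well, where 0.521% of all genes were called lower. The SMAD7 call was lost in each of 6 fits that left out 1 library (adjusted p 0.054 to 0.15), and the NANOG call in 5 of 6, all but the fit without SB431542 library 2 (0.033 to 0.21). Against untreated knock-in positive cells, 0 of the 10 readouts tested were called with SB431542 without the block. NANOG differed there by -2.13 (adjusted p = 0.55, limma) and SMAD7 by -0.45 (adjusted p = 0.88). With the block NANOG and PMEPA1 fell in that comparison, and SMAD7 was not called.

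No other neural patterning factor was called between the treatments. Of 27 factors listed for forebrain, eye field and neural plate, 21 were tested between SB431542 and Activin A, and 0 were called higher or lower with or without the block. The list's median log2 difference was -0.14, with 8 genes higher and 13 lower in mean. The groups did not overlap for 5 of the 21, of which 4 were lower and 1 higher with SB431542, where 20.0% of all genes did not overlap and 9.19% were lower. LHX5, a LIM homeobox factor, had the difference of greatest size in the list and is named after its values were seen. It was at 8.49, 2.73 and 2.36 FPKM with Activin A and at 0.717, 0.541 and 0.777 FPKM with SB431542. Its log2 difference of -1.55 was not called (adjusted p = 0.20, and 0.075 with the block). Of 21 factors of midbrain, hindbrain, spinal cord and neural crest, 17 were tested and 0 were called in either fit, with a median of -0.14. By adjusted p alone, 1 of them was lower with the block, SOX9 (-0.95, adjusted p = 0.045), named after its values were seen, and its groups overlapped. Over the first list, 16 to 17 of the 27 factors were at 1 FPKM or more in all 3 libraries of a group, and 5 to 6 were under 0.1 FPKM in all 3. Among the lowest, RAX, SIX6 and EMX1 did not exceed 0.0692 FPKM, and FEZF1 and FEZF2 were listed at 0 in all 12 libraries. These genes were picked for naming after their values were seen. Among the higher, also named after their values were seen, ZIC1 was at 50.3 to 113 FPKM over the 12 libraries, with every SB431542 library below every Activin A library (log2 difference -0.59, adjusted p = 0.28, and 0.053 with the block). SOX2, a SOXB1 factor like SOX1 and SOX3, was at 39.1 to 71.5 FPKM.

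Among genes of neural progenitors and neurons, those called with SB431542 fell, and others were higher by adjusted p without reaching the fold limit. Of 20 listed, 18 were at 1 FPKM or more in all 3 WT libraries. In knock-in positive, Activin A and SB431542 libraries 17, 17 and 16 were. NES ranged from 65.8 to 148 FPKM and TUBB3 from 27.7 to 123 FPKM over the 12 libraries, whereas NEUROD1 did not exceed 0.805 FPKM. These 3 genes were named after their values were seen. Between SB431542 and Activin A, 18 of the 20 were tested, and 0 were called without the block. With the block 3 fell and 0 rose, where 0.521% of all genes fell, and the median of the list was -0.63 against 0.0040 over all genes. By adjusted p alone, 5 were lower and 2 higher with the block. The higher ones were CDH2, the cadherin of neural epithelium, at 0.71 (adjusted p = 0.027), and FABP7, a lipid-binding protein of radial glia, at 0.68 (adjusted p = 0.027). Their SB431542 libraries were 1.54 to 1.86 and 1.55 to 1.78 times the Activin A libraries of the same number, the groups did not overlap, and both were named after their values were seen. HES5, a Notch target that holds progenitors undifferentiated, was at 77.8, 52.4 and 157 FPKM with Activin A and at 18.2, 8.61 and 30.3 FPKM with SB431542. NEUROG1, a proneural factor, was at 41.1, 40.2 and 88.5 FPKM and at 10.4, 8.88 and 28.9 FPKM in the same order. INSM1, a zinc finger factor of neurons about to differentiate, was at 16.4, 16.2 and 45.9 FPKM and at 6.51, 5.60 and 10.4 FPKM. All SB431542 libraries lay below all Activin A libraries for each of these 3 genes, as they did for 9.19% of all genes tested.

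The blocked log2 differences were -2.28 ± 0.09 (SE) for HES5 (adjusted p = 0.0083), -1.84 ± 0.10 for NEUROG1 (adjusted p = 0.012) and -1.54 ± 0.17 for INSM1 (adjusted p = 0.030), all by limma. Against untreated knock-in positive cells, HES5 fell by 1.08 (adjusted p = 0.024) and NEUROG1 fell by 1.25 (adjusted p = 0.0086) with the block, while INSM1, at -0.99, missed the fold limit. HES5 also rose with Activin A over untreated cells, by 1.20 with the block (adjusted p = 0.012). None of these calls was made without the block, and they were not checked by leaving out a library. In bulk RNA, fewer cells of a type and less RNA per cell cannot be told apart.

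**Figure D3:**
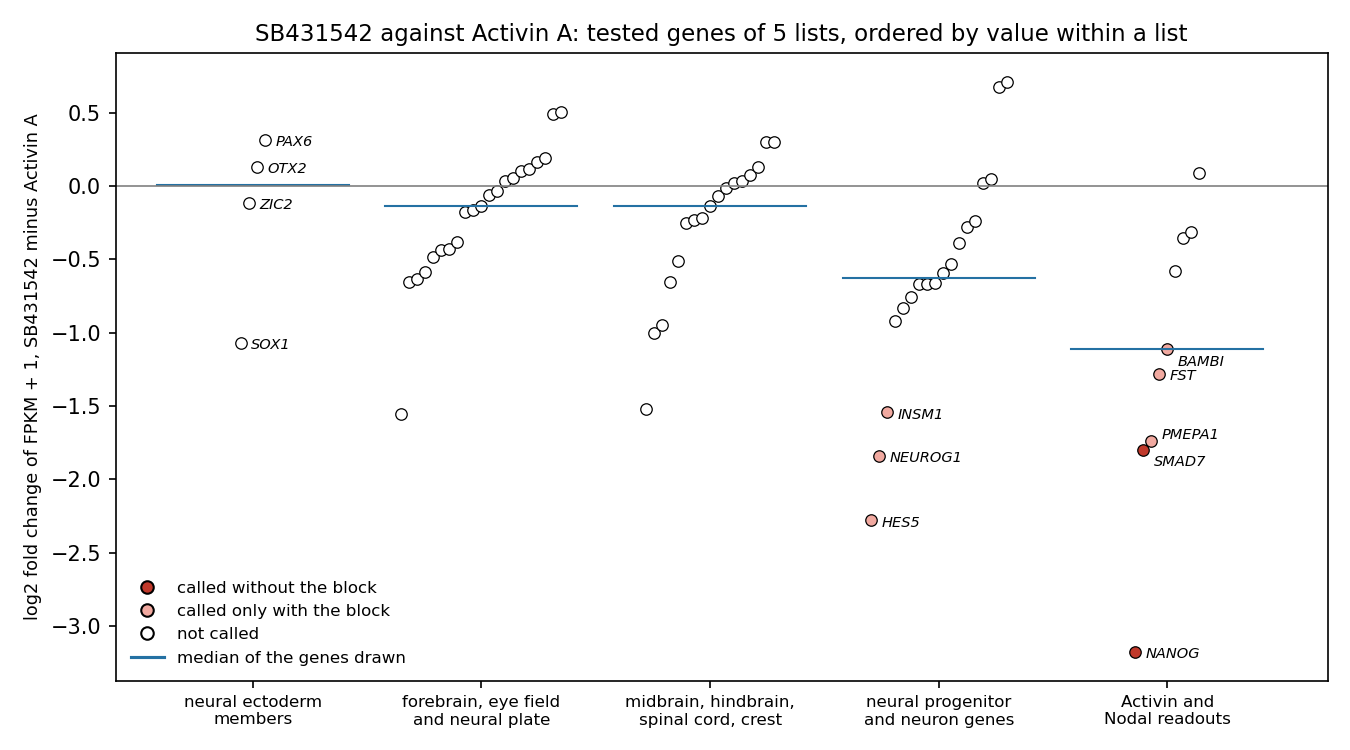
Log2 fold change of FPKM + 1, SB431542 minus Activin A (y axis), for the tested genes of 5 lists (x axis), each point a gene and each line the median of the genes drawn. Red points were called without the block, pale red points only with the library number as a block, and white points in neither. LEFTY2, listed at 0 in the SB431542 libraries, is neither drawn nor in the median. The members lie between -1.07 and 0.32, and the called genes of the other lists lie below them.

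**Figure D4:**
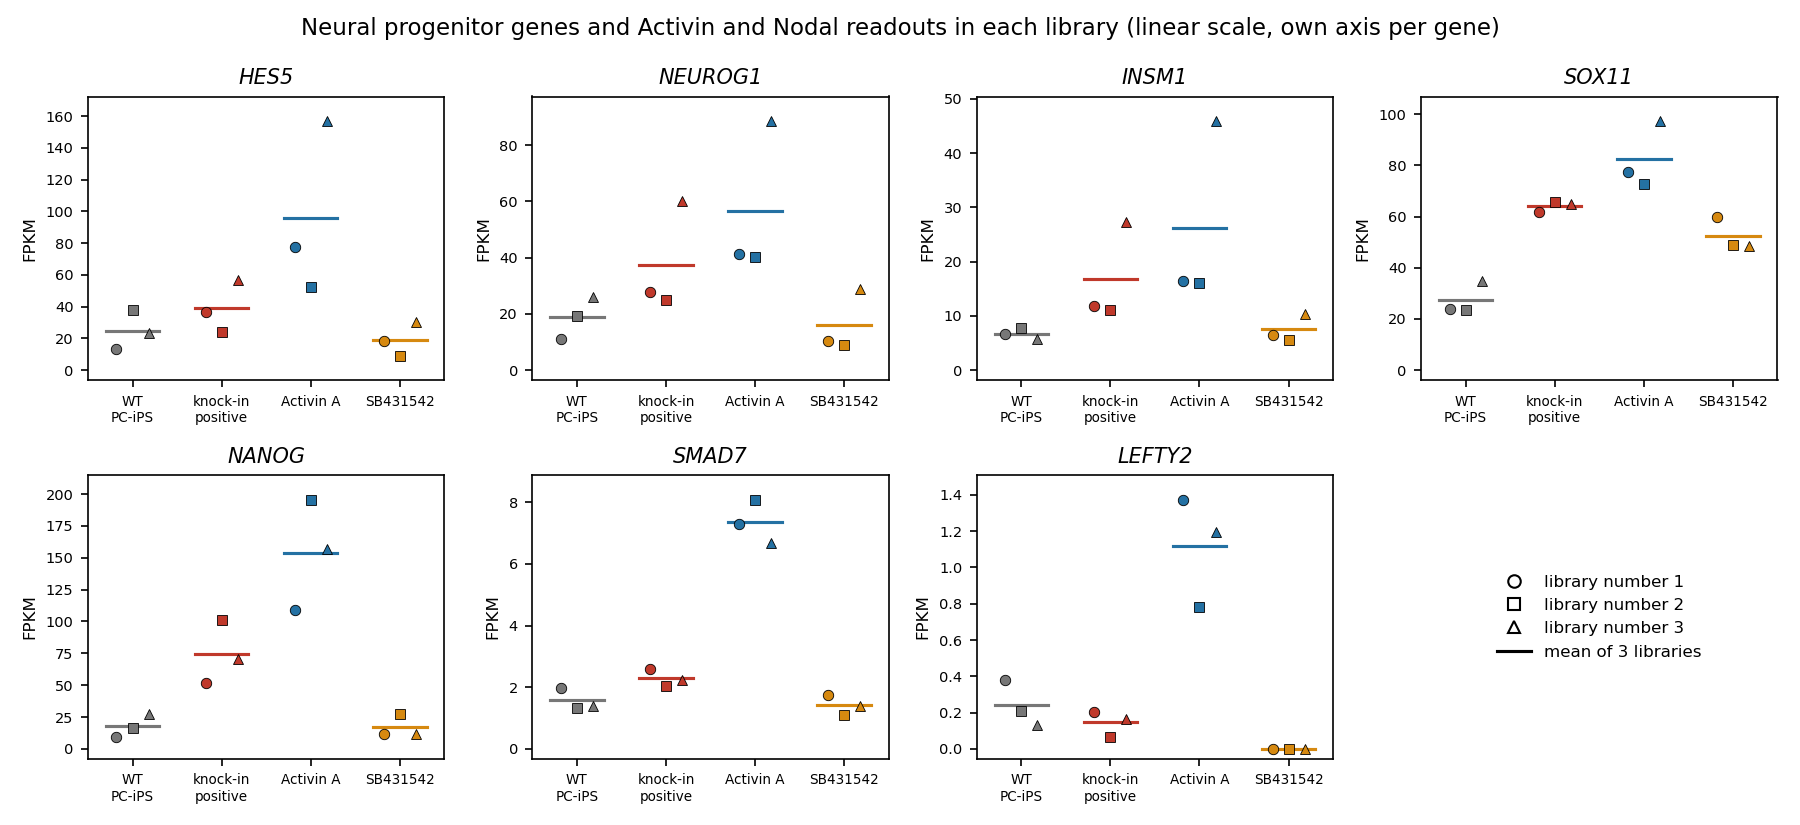
FPKM (y axis, linear, a separate scale for each gene) in the 12 libraries by group (x axis), for 4 neural genes above and 3 Activin and Nodal readouts below. Each symbol is 1 library, its shape gives the library number and the bar is the group mean. HES5, NEUROG1 and INSM1 are lower in each SB431542 library than in any Activin A library, and library 3 is the highest with Activin A (157, 88.5 and 45.9 FPKM).

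Some markers of other cells also differed between SB431542 and Activin A, and both lists held genes that were higher and genes that were lower. Of 10 fibroblast genes, listed for feeder cells, 7 were tested and 0 were called without the block, while COL1A2 (-1.59) and COL3A1 (-3.08) fell with it. Of the 7, 3 were higher and 4 lower in mean with SB431542, with a list median of -0.28. The summed level of the list was 50.3 to 75.4 FPKM with Activin A and 15.7 to 23.8 FPKM with SB431542, and POSTN, LUM and COL6A3, named after their values were seen, were at or below 0.252 FPKM in all 12 libraries. Of 10 genes listed for pericytes, the cells of origin, 9 were tested and ACTA2 rose by 1.13 (adjusted p = 0.035), a call lost in each of 6 fits that left out 1 library (0.090 to 0.16). In mean, 6 of the 9 were higher and 3 lower with SB431542, and the list median was 0.058. TAGLN made up most of the summed level of that list, at 282 to 402 FPKM with Activin A and 296 to 413 FPKM with SB431542, and the other 9 genes summed to 44.8 to 50.6 FPKM and 59.8 to 61.1 FPKM. The part of these genes in the values of PAX6, SOX1, HES5 and NEUROG1 was not tested.

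Between knock-in positive and WT PC-iPS, PAX6 was the only member called. It fell by 2.17 on the log2 scale (SE 0.48, 95% confidence interval -3.29 to -1.04, adjusted p = 0.040, limma over 14014 genes). Over all genes 324 were called, 225 higher (1.61%) and 99 lower (0.706%), together 2.31%. PAX6 was at 14.1, 26.8 and 8.96 FPKM in WT libraries and at 0.858, 4.12 and 3.84 FPKM in knock-in positive libraries, so the groups did not overlap, which held for 16.7% of all genes in this direction and 35.7% in either. An exact two-sided permutation test over the libraries gave p = 0.10, the smallest that 3 against 3 allows.

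The PAX6 call was close to its threshold. It was lost in 5 of 6 fits that left out 1 library, with adjusted p of 0.10 without WT library 1, 0.092 without WT library 2, and 0.10, 0.082 and 0.062 without knock-in positive libraries 1, 2 and 3. Without WT library 3 it was kept (0.035). In all 6 fits the difference remained below 0, from -2.51 to -1.69. The WT libraries were also the shallowest, at 0.566 to 0.634 of the relative depth, and the part of depth was not tested.

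The other members did not pass between these cells. SOX1 was at 3.96, 4.52 and 6.98 FPKM in WT libraries, and its log2 difference was 0.68 (interval -0.51 to 1.86, adjusted p = 0.41). ZIC2 was at 25.5, 28.1 and 54.4 FPKM in WT libraries, with a difference of 0.57 (interval -0.13 to 1.27, adjusted p = 0.25). OTX2 was at 68.7, 74.6 and 93.8 FPKM in WT libraries, with a difference of -0.20 (interval -0.58 to 0.18, adjusted p = 0.45). For each of these 3 genes the WT and knock-in positive libraries overlapped.

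Other neural genes were called in both directions between knock-in positive and WT PC-iPS. Over all genes 1.61% were called higher and 0.706% lower. Of 20 forebrain, eye field and neural plate factors tested, 1 rose and 0 fell. This was SOX11, a SOXC factor of committed neural cells, which went from 23.9, 23.3 and 34.7 FPKM to 61.7, 65.8 and 65.0 FPKM (log2 difference 1.23, adjusted p = 0.010). Its call was kept in each fit that left out 1 library. Of 15 midbrain, hindbrain, spinal cord and neural crest factors tested, 2 rose and 0 fell. TFAP2A, a factor of neural crest and surface ectoderm, rose by 1.56 (adjusted p = 0.019, limma). EN1, which marks the boundary of midbrain and hindbrain, rose by 2.16 (adjusted p = 0.019). EN1 was at 0.267, 0 and 1.48 FPKM in WT and at 5.46, 7.38 and 4.16 FPKM in knock-in positive libraries. It passed the filter only through the knock-in positive libraries, so its p-value is no independent support.

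Of 19 neural progenitor and neuron genes tested, 3 fell and 0 rose, where 0.706% and 1.61% of all genes did. Among them were the microtubule protein of migrating neurons DCX (-1.46, adjusted p = 0.021) and the Notch ligand DLL1 (-1.16, adjusted p = 0.040). The list's median was -0.36 against -0.0014 over all genes. Leaving out 1 library ended the EN1 call without WT library 1 or knock-in positive library 1 or 2 (adjusted p 0.063 to 0.066), and the TFAP2A call without WT library 1 or 2 (0.060 and 0.050). The DCX call ended without WT library 1 or 2 or knock-in positive library 1 or 2 (0.059 to 0.081). That of DLL1 remained only without knock-in positive library 3 (0.015), with 0.060 to 0.13 otherwise.

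Some genes listed for pericytes rose in the same comparison. TAGLN rose by 4.21 (adjusted p = 0.00066, limma), ACTA2 by 2.61 (0.0016) and PDGFRB by 1.64 (0.012). Of the 9 pericyte genes tested, these 3 were called higher and 0 lower, where 1.61% and 0.706% of all genes were. The list median was 0.28. TAGLN was at 15.2 to 26.6 FPKM in WT and 299 to 457 FPKM in knock-in positive libraries, whereas the other 9 listed genes summed to 29.2 to 31.9 FPKM and 50.2 to 52.1 FPKM. DCN, of the fibroblast list, rose by 1.49 (adjusted p = 0.031), a call lost without WT library 1 or 2 or knock-in positive library 2 or 3 (0.066 to 0.088). Of the 7 fibroblast genes tested, 5 were higher and 2 lower in mean in knock-in positive cells, with a list median of 0.83. Without overlap of the groups, 4 were higher and 1 lower, as were 19.0% and 16.7% of all genes. The part of these cells' genes in the PAX6 difference was not tested.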

How the data were processed

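The members and the gene lists were chosen with earlier results of these data known. The authors aligned reads trimmed by Trim Galore to Ssc11.1 in HISAT2 2.0.4, quantified them in StringTie 1.3.3 on an Ensembl annotation, and deposited FPKM per gene in 2 tables of 24358 genes and 6 libraries each. Whether reads were assigned by strand is not given in the sources used here. Gene names came from the tables and, by identifier, from the reference gene table, which together named 18416 genes.

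A gene entered a fit if 3 or more of its libraries reached 0.1 FPKM, 1 was added before log2, and limma 3.58.1 was run in R 4.3.3 with a variance trend, two-sided, with Benjamini-Hochberg adjustment over all genes tested. Calls needed an adjusted p no greater than 0.05 together with a log2 fold change no smaller than 1 in size. A fold change on this scale understates the change of low genes. Confidence intervals are at 95% and unadjusted. Comparisons with untreated knock-in positive cells used columns of both tables, since FPKM is scaled within a library. Figures were drawn with matplotlib 3.10.9.

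The pairing of libraries comes from the numbers in the sample labels. Same-numbered libraries of the knock-in positive, Activin A and SB431542 groups correlated in their deviations from the group means at 0.400 to 0.658 across genes, and differently numbered ones at -0.499 to -0.0699. Because each group was centred on its own mean, positive values for the same number force the others below 0 on balance. The negative range is therefore no separate evidence of pairing. WT and knock-in positive libraries did so at -0.018 to 0.094 and were not treated as paired. The fits were tested on simulated data first.

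Named genes are the 7 members, called genes of the lists (at most 4 per list and comparison, by size), NANOG, LEFTY2 and SMAD7, and the 3 genes most correlated with each member. A called gene of the lists is not reported here. Others are marked as named after their values were seen. Alternatives were a pseudocount of 0.1 or 0.01, a filter of 1 FPKM or none, values rescaled to TPM, by median ratios or by quantiles, no variance trend, the adjusted p alone, the block, a fit of only the groups compared, and leaving out each library. Libraries were left out only in fits without the block, so calls made only with the block were not checked in this way. Read counts were not used here.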

Additional observations from a re-analysis of the deposited data

How the results depend on the processing

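Among the members, 0 were called in any alternative of the 3 treatment comparisons. The PAX6 call between knock-in positive and WT cells (1 member) was lost, leaving 0, with a pseudocount of 0.01 (adjusted p = 0.052), with no filter (0.081) and with the replicate block (0.053), and the count was 0 to 1 when 1 library was left out. Over all settings of the 4 tested members with every library kept, 149 of 152 values kept direction and side of the threshold, the exceptions being these 3 of PAX6, and 79 of 96 did when a library was left out, with 12 changing sign. These ranges with 1 library left out crossed 0: PAX6 -0.027 to 0.76 and ZIC2 -0.25 to 0.024 (SB431542 minus Activin A), OTX2 -0.22 to 0.024 and ZIC2 -0.25 to 0.11 (SB431542 minus knock-in positive), PAX6 -0.29 to 0.52, SOX1 -0.28 to 1.06 and ZIC2 -0.13 to 0.23 (Activin A minus knock-in positive).

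Counts over all genes moved more. The 13 genes called between SB431542 and Activin A became 8 with a pseudocount of 0.01, 5 with no filter, 5 with a filter of 1 FPKM, 7 with no variance trend, 99 with the replicate block, and 0 to 5 without 1 library. The 0 between SB431542 and knock-in positive became 14 with the block and 0 to 1 without 1 library. The 2 between Activin A and knock-in positive became 0 with a pseudocount of 0.1 or 0.01 or no filter, 1 with a filter of 1 FPKM, TPM or no variance trend, 23 with the block, and 0 to 2 without 1 library. The 324 between knock-in positive and WT became 538 and 501 with pseudocounts of 0.1 and 0.01, 199 with no filter, 1012 by adjusted p alone, and 145 to 446 without 1 library. The block also ended the calls of EN1 (adjusted p = 0.054), DLL1 (0.068) and GREM1 (0.076) there, although those libraries share only a number. The cause of these changes was not tested. Without read counts, no counting error can be given, and levels near 0.1 FPKM are not resolved.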

Other observations

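Pluripotency factors were also compared between SB431542 and Activin A. Of 17 listed, 14 were matched and 8 tested, and NANOG fell while 0 rose without the block. With the block LIN28A, an RNA-binding protein that blocks let-7 maturation, also rose by 1.55 (adjusted p = 0.015, limma), from 90.0, 200 and 67.5 FPKM with Activin A to 327, 498 and 192 FPKM with SB431542, so that the groups overlapped. It was higher in 3 of 3 numbers, as were 25.2% of all genes. Between knock-in positive and WT PC-iPS, NANOG (2.06) and LIN28A (2.08) rose, with adjusted p of 0.025 and 0.018. The NANOG call was lost without any 1 library other than WT library 3 (0.054 to 0.079), and that of LIN28A without WT library 1 or knock-in positive library 1 (0.061 and 0.062). Of 11 mesendoderm factors, 3 were tested between the treatments and 0 were called in either fit, although GATA6 (-0.88, adjusted p = 0.045), named after its values were seen, was lower by adjusted p alone with the block. In 3 of the 4 groups at least 7 of the 11 stayed under 0.1 FPKM, and in the Activin A group 6 did.

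Antagonists of Activin, BMP and WNT signals, some of which favour neural induction, were also measured. Of 10 listed, 9 were matched and 8 tested between SB431542 and Activin A, with 0 called without the block. With it FST, which binds Activin, and BAMBI, a transmembrane decoy receptor, fell by 1.28 and 1.11 (adjusted p = 0.012 and 0.016). By adjusted p alone, 3 were lower and 1 higher, the WNT antagonist SFRP2 at 0.83 (adjusted p = 0.034). It was higher in 3 of 3 numbers, as were 25.2% of all genes, by 1.66 to 2.24 times, but below the fold limit, and was named after its values were seen. Between knock-in positive and WT PC-iPS, 7 were tested, 4 higher and 3 lower in mean. Called higher were 2, against 1.61% of all genes, namely NOG (1.25) and GREM1 (1.23), which bind BMPs (adjusted p = 0.039 and 0.044, limma). GREM1 was at 0.163, 0 and 0.109 FPKM in WT libraries and passed the filter only through the knock-in positive libraries. CHRD, named after its values were seen, was lower and not called. It was at 4.48, 1.89 and 2.26 FPKM in WT and 1.20, 1.26 and 1.32 FPKM in knock-in positive libraries. The NOG call was lost without WT library 1 or 2 or knock-in positive library 2 or 3, and that of GREM1 without any 1 library other than knock-in positive library 3. TGIF1 (1.33, adjusted p = 0.0093), a SMAD corepressor, rose and kept its call in each fit without 1 library.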
